A study of Mus musculus with 2 samples.

Results

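Amino acid transporter genes were examined in mouse embryoid bodies, clusters of embryonic stem cells that start to differentiate together. The genes are those of 7 solute carrier (Slc) families, Slc1, Slc3, Slc6, Slc7, Slc36, Slc38 and Slc43, named as the only gene of a probe set in the platform annotation, with Slc7a11 left out. This rule gave 57 of the 18193 genes on the array, read by 116 probe sets, and 34 of the 57 passed the signal filter described below. The rule used names only and no measured value.

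Embryoid bodies were formed in hanging drops from the CGR8 embryonic stem cell line (strain 129), which was grown without feeder cells in medium that contained serum, leukemia inhibitory factor and non-essential amino acids. The control group was 1 array of embryoid bodies in differentiation medium with no agent, and the FGF10 group was 1 array of embryoid bodies given recombinant FGF10, a secreted fibroblast growth factor, at 100 ng/ml. The stage is uncertain: the sample labels give day 2, while according to the design text the embryoid bodies were treated at 2 days and RNA was obtained 24 h on. Whether embryoid bodies were pooled is not given in the sources used here.

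With 1 array a group there is no replicate, no test and no estimate of the variation between cultures, and every difference below describes this pair of arrays. The values are MAS5 signals, a brightness in arbitrary units that the authors' software computes for each probe set and that cannot be set against the signal of another probe set. A ratio is the log2 signal with FGF10 less that of the control, minus the median of all kept probe sets, so that 0 means no difference from the bulk of the array. A probe set was kept where its mean signal over both arrays was at least 76.35, the median of all probe sets, since dimmer signals may not be above background. A gene is given by its brightest kept probe set, and a difference is counted from 1.5-fold, a log2 ratio of 0.585. The only error available is the disagreement between probe sets of the same gene, which had a standard deviation (root mean square difference of the brightest pair, divided by the square root of 2) of 0.268 on the log2 scale over 5213 genes and of 0.153 over the 14 transporter genes that had more than 1 kept probe set.

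All 8 fixed stem cell and epiblast markers were above the filter, among them Pou5f1 at 8157.8 without and 8787.2 with FGF10. With FGF10, 3 of the 8 were at least 1.5-fold lower, where 4.86% of all measured genes were. All 7 visceral endoderm markers were also above the filter. Of 6 fibroblast feeder markers, 4 were below it, as were 3 of 6 trophoblast and 2 of 5 neural markers. In such bulk RNA, fewer cells of a type and less RNA per cell cannot be told apart.

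Amino acid transporters move amino acids across the plasma membrane and the lysosomal membrane. Many work in a fixed division of labour, in which sodium-coupled carriers such as the system A carriers of the Slc38 family concentrate small neutral amino acids, and exchangers made of a heavy chain (Slc3) and a light chain (Slc7) trade these for leucine and other essential amino acids. Mouse embryonic stem cells are known for their need of particular amino acids, and leucine and arginine supply feeds the mTORC1 kinase, which couples nutrients to growth.

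Transporter genes as a set showed no common direction, and few of them passed 1.5-fold. Of the 34 measured, 2 were at least 1.5-fold higher with FGF10 (Slc36a4 and Slc7a2), where 5.41% of all 11122 measured genes were, and 1 was at least 1.5-fold lower (Slc7a9), where 4.86% of all measured genes were. These counts amount to 5.88% and 2.94% of the members, near the background shares. Their median log2 ratio was -0.065, beside -0.027 for all measured genes and -0.065 for the 172 measured genes of other Slc families, of which 11 were higher and 11 lower. Of the 34, 21 had a ratio under 0 (61.8%, against 53.5% of all measured genes). So did 106 of the 172 measured genes of other Slc families. Without centring 18 of the 34 were under 0, and the share of all genes there was not computed. Within 1.2-fold lay 16 of the 34 members, or 47.1%, against 59.7% of all genes. The median ratio of the members without regard to sign was 0.29, against 0.21 for all genes. These shares were not matched for signal, on which the spread depends. Over 20 signal groups of all genes, the standard deviation of the ratio was 0.67 in the dimmest and 0.19 in the brightest. On 1 array only, 4 of the 34 were above the filter: Slc7a9, Slc6a17 and Slc6a19 on the control array and Slc36a3 on the FGF10 array. Each of these passed through the array where it was high, so its direction is not independent of the filter.

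**Figure D1:**
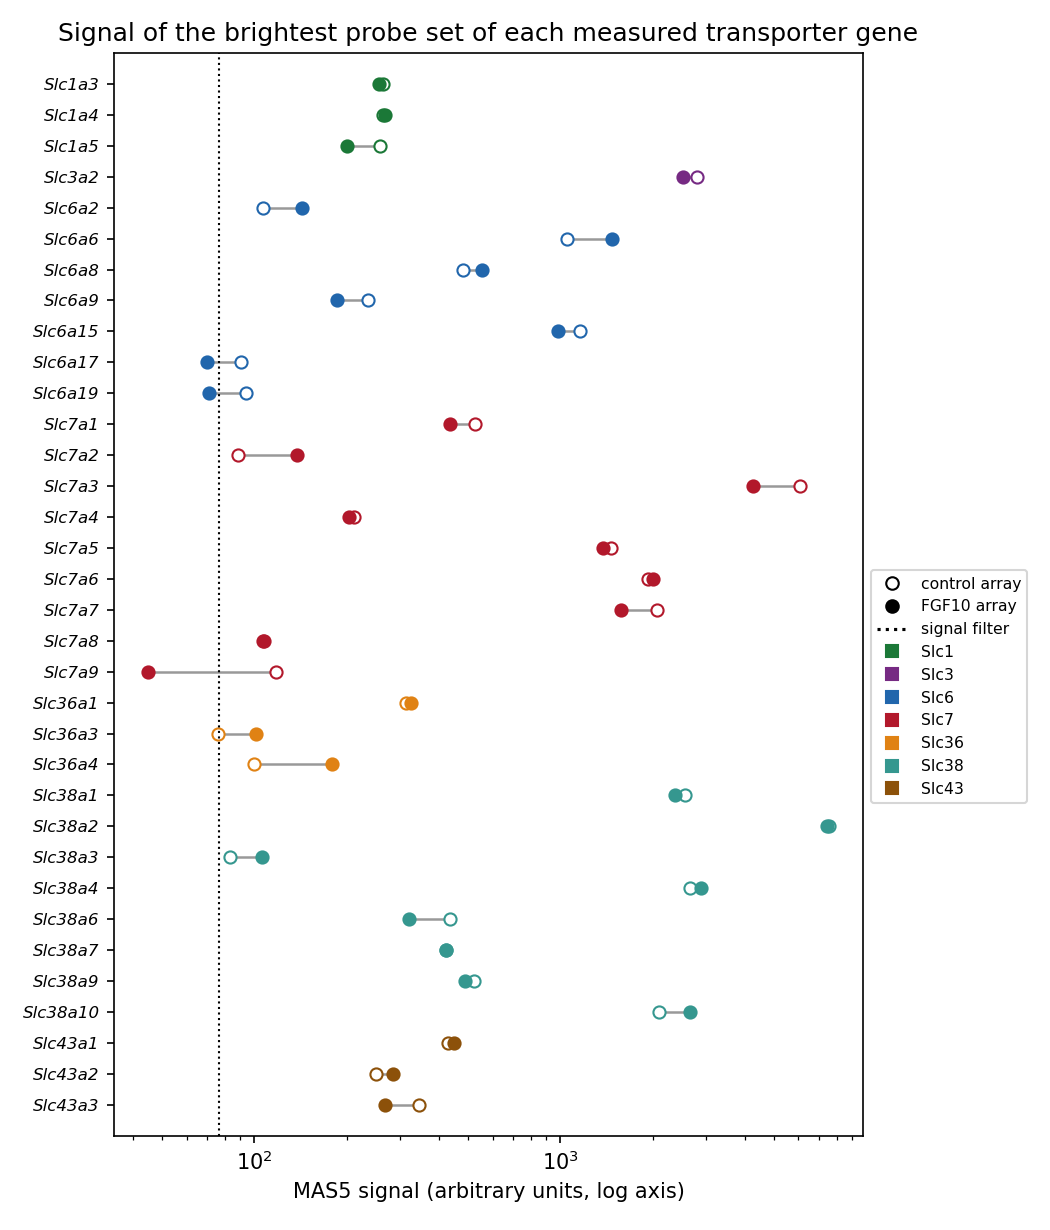
MAS5 signal (log axis, arbitrary units) of the brightest kept probe set of each of the 34 measured transporter genes, on the control array (open circles) and the FGF10 array (filled circles), coloured by family, with the signal filter of 76.35 as a dotted line. After centring, which the plotted signals lack, 16 genes lie within 1.2-fold. The pairs of Slc7a9 (117.4 and 45) and Slc36a4 (99.6 and 178.9) lie farthest apart, and signals of different genes are not comparable as levels.

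The cationic amino acid carriers of the Slc7 family bring arginine and lysine into cells without a heavy chain. Slc7a3, which encodes the carrier CAT3, had a signal of 6079.1 without and 4247.7 with FGF10. That is 1.47-fold lower, a log2 ratio of -0.55, just short of 1.5-fold, and it was read by the only probe set of the gene. Slc7a3 was the 1 member outside the middle 95% of genes of like signal: the 556 measured genes with a mean signal of 4097.35 to 6779.95 had a middle 95% from -0.47 to 0.37, a range that leaves out 1 gene in 20 by construction. The other 33 members lay inside the range of their own signal group. After quantile (-0.46) or loess (-0.44) normalization Slc7a3 was again the 1 member outside, each time against the range recomputed at that setting. Without centring its ratio was -0.52, but that setting shifts every gene alike and so cannot change which members lie outside. The stem cell markers that were lower on the same array were Dppa5a (17188.2 and 8648.7), Utf1 (4192.4 and 2589.8) and Zfp42 (1397.4 and 873.9), while Pou5f1, Nanog and Sall4 were not lower. The summed signal of the 8 markers was 53278.4 without and 45651.9 with FGF10, a fall carried by Dppa5a: the other 7 summed to 36090.2 and 37003.2. The median ratio of the 8 was -0.052, and the part of these cells in the Slc7a3 difference was not tested.

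Slc7a1, which encodes CAT1, the widely expressed arginine carrier, was at 527.6 without and 436 with FGF10 on its brightest probe set (-0.31). Its second probe set gave 539.2 and 362.9 (-0.61), so both were lower with FGF10 and only the second passed 1.5-fold. Its other probe set was below the filter on both arrays. Slc7a2, which encodes CAT2, a carrier with a splice form of low affinity in liver, went the other way, from 88.5 to 137.4 (0.60, 1.52-fold higher). Both of its signals were above but near the filter, and its 3 other probe sets were below it. Slc7a4, which is related in sequence but has no settled transport activity, was nearly equal at 211.1 and 203.5 (-0.087). Slc7a14 was below the filter. The 4 measured genes of this group therefore did not share 1 direction.

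The heterodimeric exchangers pair a light chain of the Slc7 family with a heavy chain of the Slc3 family that carries it to the membrane. Slc3a2, the heavy chain also called CD98 or 4F2hc, had signals of 2804.9 without and 2514.2 with FGF10 (-0.19). Its main partner Slc7a5, the large neutral amino acid exchanger LAT1 that brings in leucine, was at 1460.4 and 1382.8 (-0.11). Both had only 1 kept probe set. Both ratios were smaller than 0.268, the standard deviation between probe sets of a gene, which pools dim and bright genes. The Slc3a2 ratio was larger, and the Slc7a5 ratio smaller, than the 0.153 of the 14 transporter genes with more than 1 kept probe set. Under the 11 other settings that gave them a value, Slc3a2 ran from -0.20 to -0.13 and Slc7a5 from -0.12 to -0.077.

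Among the other light chains, Slc7a6 (y+LAT2, an exchanger of arginine for neutral amino acids) was level, at 1931 and 2002.7 on one probe set (0.018) and 1361.9 and 1384.1 on the other (-0.011). Its close relative Slc7a7 (y+LAT1, known from the basolateral membrane of intestine and kidney) was lower on both probe sets. The brighter gave 2073.4 without and 1580 with FGF10 (-0.43), and the second gave 1430 and 957.3 (-0.61). Slc7a8 (LAT2) was level at 106.4 and 107.2 (-0.024).

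Slc7a9, the light chain of the cystine and basic amino acid carrier of the kidney brush border, had the lowest ratio of the 34 genes, with 117.4 without and 45 with FGF10 (-1.42, 2.67-fold lower). The FGF10 signal is below the filter, which the gene passed through the control array alone, so the size is not known. Raised to 76.35 it gave -0.65, which is still past 1.5-fold. Slc7a9 was nevertheless inside the middle 95% of its signal group, the dimmest, where all genes spread from -1.45 to 1.13. Its heavy chain Slc3a1 was below the filter on both arrays (25.6 and 1.7).

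Slc7a7 and Slc7a9 were lower beside markers of the visceral endoderm, the absorptive outer layer of embryoid bodies. Of the 7 markers, 5 were past 1.5-fold downward (Apoa1, Hnf4a, Cubn, Ttr and Dab2), where 4.86% of all genes were, and 0 upward, with a median of -0.63, and their summed signal was 11025.7 without and 7278.6 with FGF10. The 3 kept probe sets of Hnf4a ran from -0.90 to 0.15 and so give it no single direction, while all kept probe sets of Apoa1, Cubn, Ttr and Dab2 were under 0. Amn and Afp, the markers not past 1.5-fold, were at 686.4 and 480.6, and at 775.1 and 716.5. All 7 markers were under 0 on the brightest probe set, but the 3 kept probe sets of Afp ran from -0.24 to 0.18. The part of these cells in the Slc7a7 and Slc7a9 values was not tested. Cltrn, the kidney protein collectrin that carries some Slc6 transporters to the membrane, was lower too, at 128.9 and 53.7 (-1.30), with the FGF10 signal below the filter. Its partner Slc6a19 was at 93.7 and 71.1 (-0.43), close to the filter on both arrays. Slc7a9, Cltrn and Slc6a19 each passed the filter through the control array alone, so their lower values are not independent of it.

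**Figure D2:**
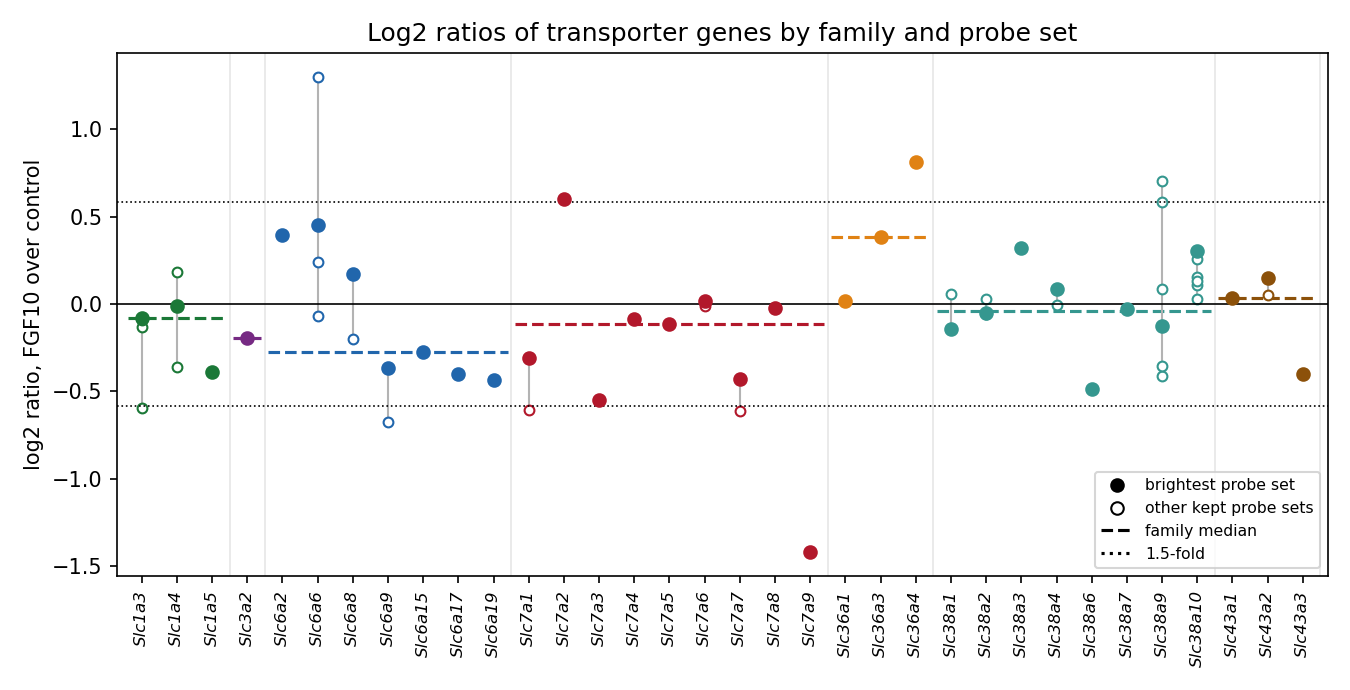
Log2 ratio of FGF10 over control for each kept probe set of the 34 measured transporter genes, ordered by family, with the brightest probe set filled, other probe sets open, the family median dashed and 1.5-fold dotted. The Slc7 genes run from -1.42 (Slc7a9) to 0.60 (Slc7a2), the 3 Slc36 genes lie above 0 at this scaling, and the probe sets of Slc6a6 and Slc38a9 spread widely.

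The sodium-coupled system A carriers of the Slc38 family were close to equal on both arrays. Slc38a2 (SNAT2, the system A carrier that is induced when amino acids are short) had 7533.8 without and 7438.8 with FGF10, and its 3 probe sets ran only from -0.056 to 0.026. Under quantile and loess normalization its ratio was above 0, and over all settings it ran from -0.059 to 0.11. Slc38a1 (SNAT1) gave 2544.9 and 2363.6 (-0.14) on one probe set and 792.5 and 842.7 (0.054) on the other. Slc38a4 (SNAT4) gave 2646.7 and 2873.3 (0.084), with -0.0033 on its second probe set. All 3 ratios were smaller than 0.268, the standard deviation between probe sets of a gene, which pools dim and bright genes.

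Slc38a10 was the member with the most probe sets of 1 sign. On its brightest it had 2102.5 without and 2659.5 with FGF10 (0.30), and all 6 kept probe sets were above 0, from 0.027 to 0.30, none of them past 1.5-fold. Slc38a6 was at 436.4 and 319.5 (-0.48) on its only kept probe set. Slc38a9, the lysosomal carrier that reports arginine to mTORC1, cannot be given 1 direction: its brightest probe set gave 520 and 487.4 (-0.13), and the 6 kept probe sets ran from -0.41, on one of the _x_at type that can read related sequences, to 0.71, on a dim one (88 and 147). Slc38a7, a lysosomal glutamine carrier, was level at 421.5 and 422.9 (-0.030, and above 0 without centring). Slc38a3 (SNAT3, a system N glutamine carrier) was dim at 83.1 and 106.1 (0.32), and Slc38a5 was below the filter.

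In the proton-coupled Slc36 family all 3 measured genes had a ratio above 0, or 2 of the 3 after quantile or loess normalization. Slc36a4, which carries proline and tryptophan with high affinity, had the highest ratio of the 34 genes, with 99.6 without and 178.9 with FGF10 (0.81, 1.75-fold higher). It lay inside the -1.03 to 0.94 of genes of like signal and had a ratio of 0.70 to 0.84 under the 10 other settings that gave it a value, among them choices of probe set that cannot change a gene with only 1. Slc36a1 (PAT1, found on lysosomes) was level at 313.7 and 325.6 (0.019), and just under 0 after quantile and loess normalization. Slc36a3 was near the filter at 75.8 and 101.1 (0.38) and was measured only because of its higher FGF10 signal, so its direction adds nothing to the count. All 3 genes rest on 1 probe set each, and Slc36a2 was below the filter.

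In the Slc1 family, the neutral amino acid exchangers Slc1a4 (ASCT1) and Slc1a5 (ASCT2, a glutamine carrier) were both within 1.5-fold. Slc1a5 had 257.3 without and 201.1 with FGF10 (-0.39). Slc1a4 had 262.4 and 266.9 (-0.0098), while its other probe sets gave -0.36 and 0.18, and its sign turned without centring and without the filter. Slc1a3, the glutamate carrier GLAST, was at 264.1 and 256.2 (-0.078), and its 4 kept probe sets were all under 0, the lowest at -0.60. The other glutamate and aspartate carriers, Slc1a1, Slc1a2, Slc1a6 and Slc1a7, were below the filter.

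The Slc6 family holds carriers of neurotransmitters, of osmolytes and of amino acids, and 7 of its 18 genes were measured. Slc6a6, the taurine carrier, was at 1047.8 and 1469.3 (0.45), with 0.24 on its second probe set (537.5 and 649.1), -0.070 on the next and 1.30 on its dimmest, where the control signal of 54.8 was below the filter. Slc6a8, the creatine carrier, gave 479.4 and 552.8 (0.17) on one probe set and 300.2 and 267.5 (-0.20) on the other. Slc6a9, the glycine carrier GlyT1 that early embryos use to set cell volume, was lower on both probe sets, with 235.4 and 186.8 (-0.37) and with 120.8 and 77.5 (-0.67). Slc6a15 (a neutral amino acid carrier of brain) was at 1155.5 and 979.3 (-0.27). Slc6a2, the noradrenaline carrier, and Slc6a17 were dim, at 106.4 and 143 (0.39) and at 90.3 and 70 (-0.40). The other 11 genes, among them the dopamine, serotonin and GABA carriers Slc6a3, Slc6a4, Slc6a11 and Slc6a13, were below the filter.

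In the Slc43 family all 3 genes were measured. The leucine carriers Slc43a1 (LAT3) and Slc43a2 (LAT4) were at 428 and 449.6 (0.037) and at 249.4 and 283.2 (0.15), and Slc43a3, a purine base carrier, was at 343.9 and 267.1 (-0.40). The sign of Slc43a1 turned under quantile and loess normalization.

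Compared as families, the medians were 0.38 for Slc36 (3 genes, the median being Slc36a3 itself), 0.037 for Slc43 (3), -0.041 for Slc38 (8), -0.078 for Slc1 (3), -0.11 for Slc7 (9), -0.19 for the single measured gene of Slc3 and -0.27 for Slc6 (7). Ratios were under 0 in 7 of 9 Slc7 genes, 4 of 7 Slc6 genes, 5 of 8 Slc38 genes, 3 of 3 Slc1 genes and 0 of 3 Slc36 genes. The share over all measured genes was 53.5%. The family counts include Slc7a9, Slc6a17, Slc6a19 and Slc36a3, whose direction is not independent of the filter. Without centring the Slc7 count was 6 of 9, the Slc38 count 4 of 8 and the Slc1 count 2 of 3, and after quantile or loess normalization the Slc38 count was 4 of 8 and the Slc36 count 1 of 3. The medians of Slc7, Slc1 and Slc6 were under 0 and that of Slc36 above 0 at all 4 scalings, while those of Slc38 and Slc43 turned sign. All 4 scalings used the filter on mean signal, so they do not remove its effect on these signs. No difference between families could be tested. The order is not firm, since the Slc6 median was 0.17 once both arrays had to pass the filter and 0.21 at the stricter filter, and the Slc36 median rests on 2 genes, Slc36a1 and Slc36a4, once both arrays had to pass (0.42). The 23 genes below the filter are 11 of Slc6, 5 of Slc7, 4 of Slc1 and 1 each of Slc3, Slc36 and Slc38. Besides those named above they are Slc6a5, Slc6a7, Slc6a12, Slc6a14, Slc6a16, Slc6a18 and Slc6a21, and Slc7a10, Slc7a12, Slc7a13 and Slc7a15.

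**Figure D3:**
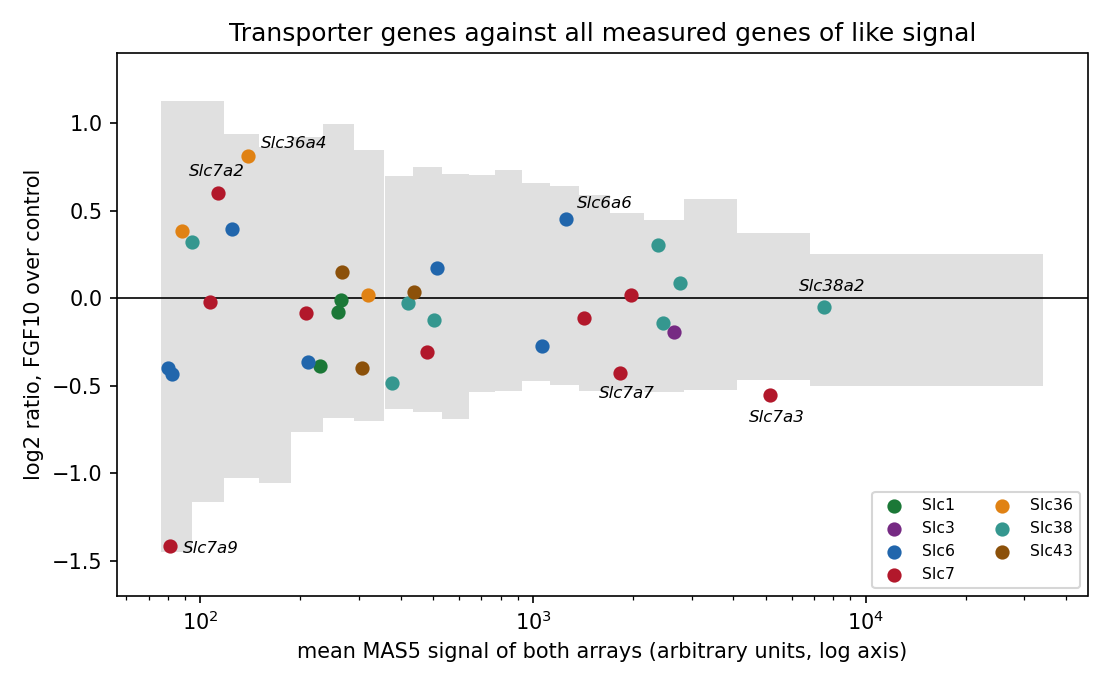
Log2 ratio of FGF10 over control against mean MAS5 signal of both arrays (log axis) for the 34 measured transporter genes, coloured by family. Grey marks the middle 95% of the ratios of all 11122 measured genes in 20 groups of like signal; Slc7a3 at -0.55 is the 1 transporter outside it.

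Of the 14 genes with more than 1 kept probe set, 6 had 1 sign on all of them (Slc1a3, Slc6a9, Slc7a1, Slc7a7, Slc38a10 and Slc43a2) and 8 did not. The second probe set shared the sign of the brightest in 9 of the 14, where 65.7% of all genes with a pair did so. Slc7a1, Slc7a7 and Slc6a9 were each past 1.5-fold on the second probe set alone.

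Promoter letters were read from RefSeq (GRCm38.p6), which had an entry for 40 of the 57 genes, not counting Slc7a3, Slc7a5 and Slc7a2. The 250 bases before each start site were searched on both strands. The amino acid response element, written TGATGNAAN, to which the stress factor Atf4 binds with a partner, was found before 2 of the 40 genes and before 3.61% of 17492 protein-coding genes. Of the 22 measured members with an entry only Slc7a7 held it, once before each of a pair of start sites. Slc7a1 and Slc6a9, also lower on both kept probe sets, held none there. Bases after the start were not searched, so an element there would be missed. Both Slc7a7 windows are shown, a choice made after its ratios were seen, and a link to them was not tested. The match is in capitals, 141 and 243 bases before the start at chr14:54418031-54418130 and chr14:54417853-54417952, both on the minus strand.
Slc7a7 first start site: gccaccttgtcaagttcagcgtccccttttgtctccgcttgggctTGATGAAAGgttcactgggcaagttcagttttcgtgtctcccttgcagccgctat
Slc7a7 second start site: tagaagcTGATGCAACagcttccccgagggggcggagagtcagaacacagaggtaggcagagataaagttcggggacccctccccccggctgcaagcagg

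The E-box CACGTG, a palindrome read by Myc and by the lysosomal regulators of the Tfeb family, was found before 9 of the 40 genes and before 7.61% of protein-coding genes. Of the 9 genes 6 were below the signal filter, and the measured ones were Slc36a1, Slc38a7 and Slc43a1, whose ratios of 0.019, -0.030 and 0.037 were all near 0. Other level members were searched and held no E-box, such as Slc1a4 (-0.0098) and Slc7a6 (0.018). The windows shown are those of the measured members with an E-box. They lie at chr11:55204240-55204339 (plus strand), chr8:95853492-95853591 (minus strand) and chr2:84840214-84840313 (plus strand), with the E-box in capitals 31, 34 and 64 bases before the start.
Slc36a1: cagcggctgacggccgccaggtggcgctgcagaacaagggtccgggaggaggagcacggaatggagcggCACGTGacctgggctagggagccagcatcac
Slc38a7: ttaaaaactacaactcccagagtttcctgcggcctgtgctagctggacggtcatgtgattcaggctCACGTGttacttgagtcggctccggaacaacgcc
Slc43a1: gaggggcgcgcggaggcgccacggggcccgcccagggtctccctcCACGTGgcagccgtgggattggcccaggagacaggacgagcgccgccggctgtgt

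The hypoxia response core ACGTG, which lies inside the E-box, was found before 15 of the 40 genes and before 3491 of the 17492 protein-coding genes. Among the measured members with it was the heavy chain gene Slc3a2, on the other strand (CACGT in capitals, 164 bases before the start, chr19:8714007-8714106, minus strand).
Slc3a2: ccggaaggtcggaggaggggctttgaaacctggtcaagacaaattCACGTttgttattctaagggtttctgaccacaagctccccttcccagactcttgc
A match is a description of these letters and not a measured binding site.

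Genes that sense, charge or make amino acids were read beside the transporters. In the list of amino acid sensing and mTORC1 genes, 5 of 35 were higher by 1.5-fold or more and 1 was lower, and the median was 0.056. The 5 are Ddit4 (1.37), Sesn3 (572.3 and 1055.8, 0.85), Fnip2 (0.69), Tsc1 (413.8 and 678.2, 0.68) and Castor2, a relative of the arginine sensor Castor1 (250.9 and 400.2, 0.64). Their close relatives and partners did not share 1 direction: Sesn1 was at 0.44 and the leucine sensor Sesn2 at -0.48, Castor1 at -0.34, Tsc2 at 0.24 and Fnip1 at -0.26, with 0.66 on its highest probe set. Depdc5, Nprl2 and Nprl3, which form the GATOR1 complex, were at 0.066, 0.074 and -0.037, and the 4 kept probe sets of Depdc5 ran from -0.34 to 0.62. The second probe sets of Sesn3, Tsc1 and Castor2 gave 0.70, 0.26 and 0.32. The lower gene was Lamtor4, a subunit of the Ragulator complex that holds mTORC1 at the lysosome, at 1821.6 and 1100.7 (-0.76). Their share of 14.3% higher stands beside the 5.41% of all genes and was not tested.

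The 19 aminoacyl-tRNA synthetase genes, which charge amino acids onto tRNA, had a median of -0.085 with 0 past 1.5-fold, from -0.45 for Farsb to 0.29 for Vars, with Rars and Tars both at -0.44. The 4 kept probe sets of Farsb were all under 0. The 17 amino acid synthesis genes also had 0 past 1.5-fold on the brightest probe set, and their median was -0.22, with 12 under 0. Other kept probe sets passed it: the 4 of Shmt2 ran from -1.13 to 0.22, and the 4 of Gpt2 from 0.16 to 0.69. Psph, the last enzyme of serine synthesis, was at 1836.9 and 1289.9 (-0.54), and the asparagine synthetase gene Asns was at 2691.6 and 2089.4 (-0.40, and -0.18 on its second probe set). Cbs, which makes cystathionine, was at -0.38, with -0.021 on its other probe set, and Bcat2, a branched-chain aminotransferase, at -0.33. In the Gcn2 and Atf4 list, the response to amino acid shortage, 0 of 10 measured genes passed 1.5-fold and the median was -0.094, with Trib3 at 0.43 and -0.18 on its 2 probe sets, Chac1 at -0.42 and Atf4 at -0.19 and 0.035. Ddit3 and Eif2ak4, the gene of the Gcn2 kinase, were both at 0.31. Of 13 measured amino acid and peptide carriers outside the 7 families, Slc15a2, a peptide carrier, was higher on its brightest probe set (565.5 and 875.5, 0.60) and at -0.14 on the other, and Cltrn was lower. The mitochondrial carriers Slc25a22 (glutamate) and Slc25a12 (aspartate and glutamate) were at -0.44 and -0.42.

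**Figure D4:**
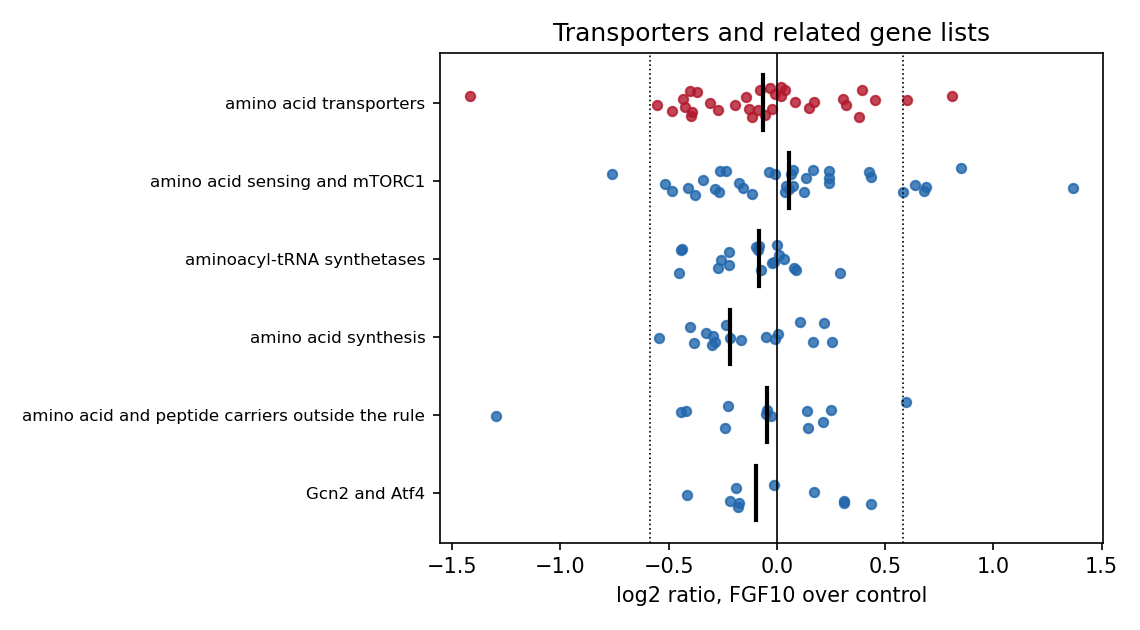
Log2 ratio of FGF10 over control for the 34 measured transporter genes (red) and the measured genes of 5 related lists (blue), 1 point a gene, with the list median as a black bar and 1.5-fold as dotted lines. The medians lie between -0.22 (amino acid synthesis) and 0.056 (amino acid sensing and mTORC1), and the highest point is Ddit4 at 1.37.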

How the data were processed

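Total RNA was labelled with biotin and hybridised to 1 Affymetrix array per group. The deposited intensity values are MAS5 signals, per the submitters' processing notes, with no version or settings given, and are linear, not log values. The mean of each column without the lowest and highest 2% was 500.003, the form that scaling to a common level leaves, and after such scaling a ratio does not show a change in total RNA.

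Of 45037 probe sets that are not chip controls, 34945 had 1 gene in the platform annotation, 932 several and 9160 none listed. All 57 member genes were found by identifier in the GRCm38.p6 gene table. The labels name no genome build. The signal filter of 76.35 kept 22524 probe sets, of which 19966 had 1 gene, for 11122 genes, and the median log2 ratio removed was 0.034. Differences were counted with no test, using Python 3.11.15, numpy 2.4.6 and pandas 2.3.3, and the procedure was tested on simulated data. The number of arrays limits the precision.

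The members, lists and alternatives were chosen with earlier results of these data known. Named genes are Slc7a3, Slc7a5 and Slc3a2, members past 1.5-fold, those whose probe sets disagree in sign or span over 0.5, the brightest and the most level member of each family, and of each related list the 4 farthest from 0. Other members were named to account for all of them. Tsc1, Castor2, their relatives and partners, and Atf4 were named after their values were seen, and the motifs and the windows shown were chosen then too.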

Additional observations from a re-analysis of the deposited data

How the results depend on the processing

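With 1 array a group, no replicate could be left out and no paired analysis was possible. Settings were no centring, quantile and loess normalization, an offset, other filters, other choices of probe set, signals raised to the filter, 2-fold, and the mean or a trimmed set of members. A ratio or median is given here where it moved by over 0.268 on the log2 scale, and a count where it moved by over 1.5 times. The 0.268 is the standard deviation between probe sets of single genes, and is wider than every family median but those of Slc36 and Slc6. Of 100 values for medians, 10 turned sign and 18 were equal to the reported value. Of 189 values for single genes, 17 turned sign and 35 were equal, and a gene with 1 kept probe set cannot move under other choices of probe set. The median over all members ran from -0.086 to -0.031.

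The count of higher members was 1 under quantile normalization, loess and the offset, where Slc7a2 fell short, and 0 at 2-fold and at the 75th percentile filter, which kept 14 members. Without a filter all 57 members, 23 of them below the main filter, gave 6 higher and 10 lower. The Slc3 median was then -2.06 with Slc3a1 in it. The count of lower members was 0 at the 75th percentile filter and with a filter on both arrays, which drops Slc7a9, and 4 with second probe sets, where Slc7a1, Slc7a7 and Slc6a9 join it. The share of all genes was not computed at these settings, so the 5.41% and 4.86% of the main setting do not apply to these counts. The Slc6 median was 0.21 at the 75th percentile filter and 0.17 with both arrays filtered, and the Slc1 median was -0.36 with second probe sets. Slc7a3, which has 1 probe set and is given although it did not move that far, lay between -0.56 and -0.44 in all 11 settings. Slc7a9 was at -1.11 with the offset and -0.65 with signals raised. With second probe sets Slc1a4 moved from -0.0098 to -0.36, and Slc6a8 from 0.17 to -0.20.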
